A study of Mus musculus with 8 samples.

Results

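The T cell receptor gene segments are the variable (V), joining (J) and constant (C) pieces from which T cells assemble the alpha, beta, gamma and delta chains of their antigen receptor. They were taken by a rule on gene symbols that uses no measured value, but with earlier results of these data known. Of the 24011 genes tested, 164 were of this kind. By class they were 80 V segments, 77 J segments and 7 C regions, and by chain 103 alpha, 39 beta, 15 gamma and 7 delta. A RefSeq gene table lists 270 segments with such names, and the other 106, among them every diversity (D) segment and the delta constant gene Trdc, were not analysed here. Expression was measured on arrays in 2 sorted populations from the bone marrow of adult C57Bl6 mice, with 4 samples each. Lin+ cells carry surface markers of mature blood lineages. The HSC-enriched cells, in which haematopoietic stem cells are concentrated, are lineage-negative, Sca-1-positive and Kit-positive (LSK) and lack CD48. The sample labels also call them CD105-positive, where the series' design text names CD150. No treatment or altered allele is given for either group, and the sources used here name neither the lineage antibodies nor any pooling of animals.

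In the germline the V and J pieces, and the D pieces that only the beta and delta loci hold, lie apart along a locus. The RAG1-RAG2 recombinase joins such pieces in developing thymocytes, with the enzyme TdT adding bases at the joints. The joined V region is then spliced to the C region in the messenger RNA, so that every transcript of a chain holds a C region but only 1 of many V and J segments. Unrearranged loci can also be transcribed, and a probe within a segment reads both kinds of RNA, which the values of these arrays do not separate. The thymus, not the marrow, is the main site of T cell receptor assembly, but marrow holds mature T cells, B cell precursors that express the same recombinase, and the stem cells from which thymus-seeding progenitors descend.

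Values are log2 levels after RMA, the authors' normalization, so a difference of 1 is 2-fold, and differences are HSC-enriched minus Lin+ throughout. A gene is said to have risen or fallen where limma's test gave an adjusted p under 0.05 over all 24011 genes. Array medians ran from 5.23 to 5.33. Replicates 3 and 4 of the HSC-enriched arrays stood apart in transcripts of other blood cells: 14 neutrophil genes averaged 9.04 and 8.83 on these, against 6.75 and 6.69 on replicates 1 and 2, and 13 B cell genes averaged 6.23 on replicate 3 against 4.95 to 5.08 on the others. The T cell receptor segments averaged 3.94, 3.89, 4.02 and 4.03 on HSC-enriched replicates 1 to 4 and 4.48, 4.54, 4.68 and 4.50 on Lin+ replicates 1 to 4. As a whole they thus separated the groups without overlap. Nothing in the labels ties the samples to separate animals, and a p-value here measures spread between samples that may be technical.

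T cell receptor segments were lower in HSC-enriched cells or did not pass the test, with a single exception. Of the 164, 56 fell (34.1%, where 12.4% of all genes fell) and 1 rose (0.61%, where 15.5% of all genes rose). The median difference was -0.34 for the segments and 0.02 for all genes. On 51 of the segments the 4 Lin+ arrays all lay above the 4 HSC-enriched arrays, or 31.1% against 13% of all genes. Falls of at least 2-fold numbered 33, and 6.08% of all genes fell as much. Without HSC-enriched replicates 3 and 4 together, 41 fell and 1 rose. In such bulk samples fewer cells of a type and less RNA per cell cannot be told apart.

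The classes differed in how many members fell: all 7 C regions, 32 of 77 J segments (41.6%) and 17 of 80 V segments (21.2%). Of all genes 12.4% fell. Their median differences were -2.31, -0.66 and -0.23. No V segment rose by limma's adjusted p, and 1 did at an unadjusted p under 0.05. Many segments lay near background. Against the 95th percentile of 1091 olfactory receptor genes, which marrow cells are not known to use and which serve as a guide (5.07 in Lin+ and 5.09 in HSC-enriched cells), 51 segments had a higher Lin+ mean and 36 a higher HSC-enriched mean. Of the 56 that fell, 47 had an HSC-enriched mean under the guide and 35 had both means under it, so the folds of these rest on values near background.

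The largest falls were those of C regions. Trac (Entrez gene 100101484), the only alpha constant gene, was at 10.03, 9.99, 10.24 and 9.63 on Lin+ replicates 1 to 4 and at 5.21, 5.93, 5.94 and 6.24 on HSC-enriched replicates 1 to 4. All Lin+ values lay above all HSC-enriched ones, by a wide margin. The group means were 9.97 ± 0.26 and 5.83 ± 0.44 (SD, n = 4), a 17.7-fold fall (difference -4.14, SE 0.21, adjusted p = 6.1e-07). The HSC-enriched mean was still above the background guide.

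Both beta constant genes fell, again with HSC-enriched means above the guide. Trbc2 (100125263) was at 10.35, 10.45, 10.50 and 10.24 on the Lin+ arrays and at 7.73, 7.15, 7.72 and 7.27 on the HSC-enriched arrays. It fell 7.55-fold (adjusted p = 6.1e-07). Trbc1 (100125262), its near-identical copy at the other beta J cluster, was at 9.75, 9.79, 9.25 and 9.52 against 6.58, 7.35, 7.32 and 7.10. It fell 5.60-fold (adjusted p = 5.4e-06), and again the groups did not overlap. The sources used here do not say how the probes tell the copies apart, so the separate values of Trbc1 and Trbc2 are uncertain.

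The gamma constant genes fell less. Trgc4 (107576) was at 5.52, 6.31, 6.57 and 5.78 on the Lin+ arrays and at 3.16, 3.75, 4.15 and 3.91 on the HSC-enriched arrays, a 4.96-fold fall (adjusted p = 8.0e-05). Trgc2 (107574) fell 2.44-fold, from 6.47 ± 0.30 to 5.19 ± 0.12 (adjusted p = 0.00011). Both were free of overlap between the groups. Trgc3 (107575) fell by 0.72 with both means under the guide, at 3.29 ± 0.36 and 2.57 ± 0.22 (adjusted p = 0.013), and lost its call with HSC-enriched replicates 3 and 4 both left out (adjusted p = 0.051). Trgc1 (107573) was at 4.01, 3.20, 4.65 and 5.20 against 3.32, 2.94, 3.47 and 2.69, with overlapping groups. Its fall of 1.16 (adjusted p = 0.039) was lost when Lin+ replicate 1, 3 or 4 or HSC-enriched replicate 1, 2 or 4 was left out (adjusted p = 0.054 to 0.105).

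**Figure D1:**
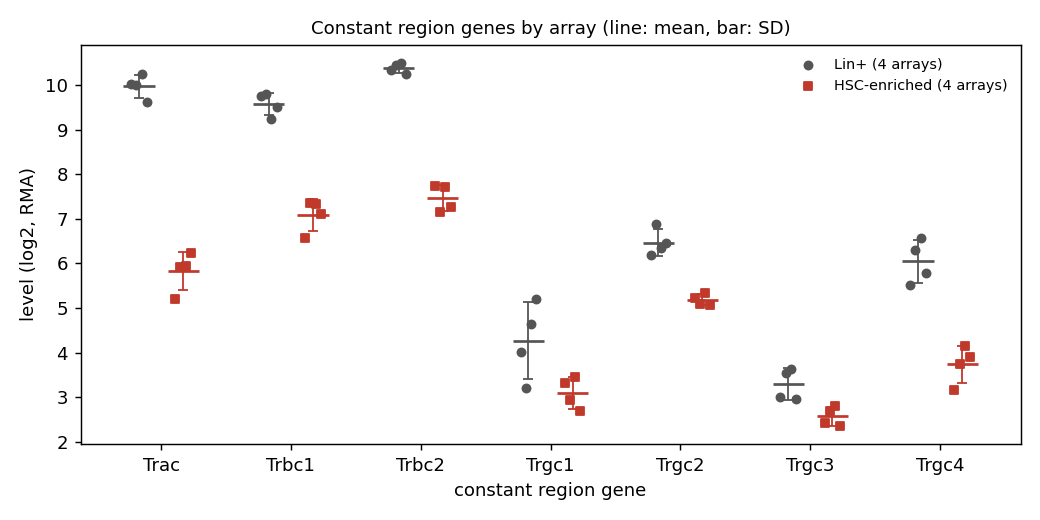
Log2 level of the 7 constant region genes on each of the 4 Lin+ arrays (grey circles) and 4 HSC-enriched arrays (red squares), with the mean as a line and the SD as a bar. Trac shows the widest gap, 9.97 against 5.83, and Trgc1 is the gene whose groups overlap. Levels are comparable between groups of a gene, not between genes.

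Of 57 alpha J segments, 20 fell (35.1%, against 12.4% of all genes) and 1 rose, with a median difference of -0.62. They lie in a row between the V segments and Trac and carry numbers that count down toward Trac. Traj23 (100124366) was at 5.58, 4.78, 5.59 and 4.52 on the Lin+ arrays and at 2.92, 2.44, 3.80 and 2.45 on the HSC-enriched arrays, a 4.64-fold fall (adjusted p = 0.00060). Its neighbour Traj22 (100124367) was at 6.35, 5.24, 5.32 and 6.28 against 3.99, 3.30, 3.84 and 3.61, a 4.33-fold fall (adjusted p = 0.00020). Traj21 (100124368), the next in the row, was at 5.15, 5.38, 6.35 and 5.50 against 3.47, 3.67, 3.31 and 3.58, a 4.25-fold fall (adjusted p = 6.2e-05). These adjoining segments had the largest falls of the class, none overlapped between the groups, and all had HSC-enriched means under the guide.

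The counts differed along the row. Divided by locus order into 3 runs of 19 segments, the run farthest from Trac, Traj61 to Traj42, held 2 that fell. That is 10.5%, near the 12.4% of all genes that fell. The middle run, Traj41 to Traj23, held 9 (47.4%). The run next to Trac, Traj22 to Traj2, held 9 that fell (47.4%) and the 1 that rose. The medians of the runs were -0.16, -0.90 and -0.66. The 2 segments of the first run that fell are its last, Traj43 and Traj42, named for their place. Over the other settings in which all segments were fitted, the runs held 0 to 3, 7 to 11 and 7 to 10 that fell. The difference between runs was not tested. Of the 7 alpha J segments that RefSeq lists as pseudogenes, 5 lie in the first run, and 0 of the 7 fell.

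The exception was Traj6 (100124397), in the run next to Trac. It was at 5.98, 6.10, 6.33 and 6.42 on the Lin+ arrays and at 7.19, 7.03, 6.92 and 7.38 on the HSC-enriched arrays. Every HSC-enriched value was the higher, and the rise was 1.90-fold (difference 0.92, SE 0.14, adjusted p = 0.00052), with both means above the guide. No other segment rose in this fit, but 2 in all rose with array weights or with a filter at the median, and 3 without HSC-enriched replicate 1. The brightest alpha J segments that did not pass were Traj50 and Traj39. Traj50 was at 6.48 ± 0.25 in Lin+ and 6.27 ± 0.27 in HSC-enriched cells (adjusted p = 0.45), and Traj39 at 5.95 ± 0.62 and 5.86 ± 0.33 (adjusted p = 0.88).

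**Figure D2:**
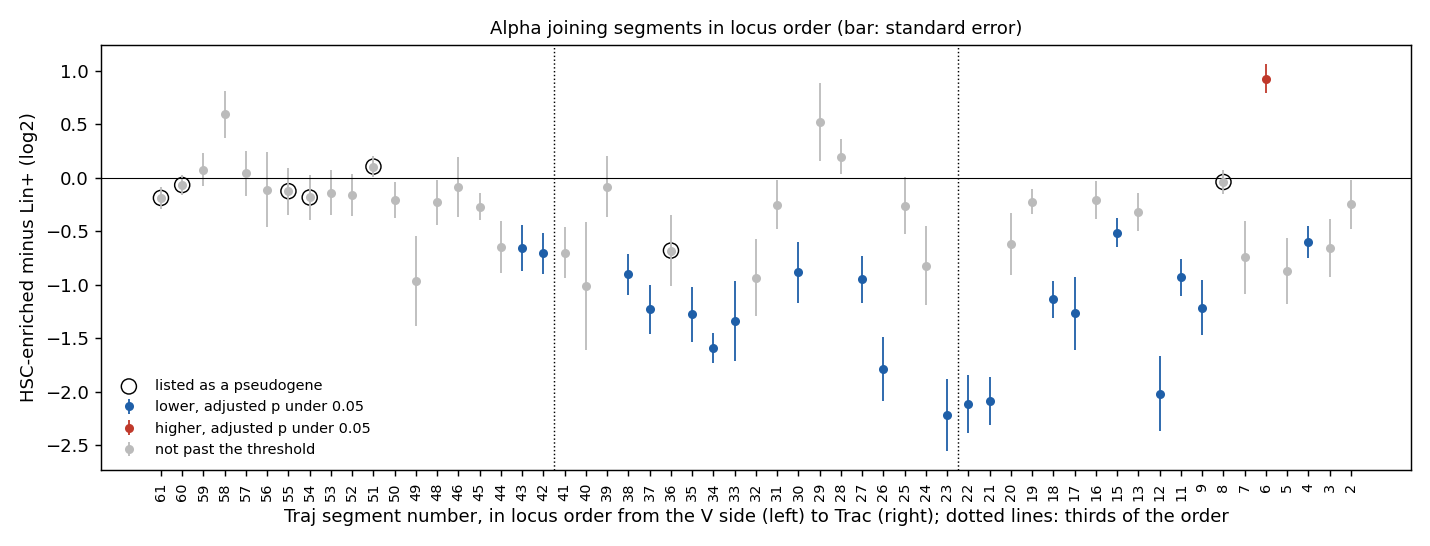
Difference between HSC-enriched and Lin+ means (log2, bars are standard errors) of the 57 alpha J segments in locus order, with Trac to the right. Blue points fell, the red point (Traj6) rose, grey points did not pass, and rings mark segments listed as pseudogenes. The left run of 19 holds 2 falls, and the other runs hold 9 each.

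Of 14 beta J segments, 9 fell (64.3%, against 12.4% of all genes), with a median difference of -1.47. They form a pair of clusters, each followed by its own constant gene. In the first cluster 4 of 7 fell and in the second, next to Trbc2, 5 of 7. Trbj1-1 (100125248) was at 5.99, 8.01, 7.00 and 5.96 on the Lin+ arrays and at 4.92, 4.05, 4.41 and 4.34 on the HSC-enriched arrays, a 4.95-fold fall (adjusted p = 0.0017). Trbj2-7 (100125261), last of the second cluster, was steadier, at 7.23, 7.39, 7.50 and 7.03 against 5.63, 5.15, 5.31 and 5.11. It fell 3.96-fold (adjusted p = 4.6e-06) with both means above the guide. Trbj1-3 fell by 1.93 (adjusted p = 0.0017), from 4.08 ± 0.83 to 2.16 ± 0.26, with both means under the guide. The other 6 fell by 0.35 to 1.78.

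Beta J segments that did not pass included bright ones. Trbj1-6 (100125253) was at 9.51, 9.37, 9.72 and 9.23 on the Lin+ arrays and at 9.13, 9.49, 9.39 and 9.81 on the HSC-enriched arrays. The groups overlapped fully, with means of 9.46 and 9.45 (adjusted p = 0.99). The segments on either side, Trbj1-5 (difference -0.19, adjusted p = 0.72) and Trbj1-7 (difference -0.29, adjusted p = 0.29), did not pass either. Trbj2-5 was at 6.86 ± 0.23 against 6.41 ± 0.22 (difference -0.45, adjusted p = 0.052). With replicate 4 of either group left out it fell, at adjusted p = 0.031 (Lin+) and 0.027 (HSC-enriched), as it did in 4 more settings. Trbj2-6, which RefSeq lists as a pseudogene and which was chosen after its values were seen, fell by 1.51 (adjusted p = 0.0025). It was the only fall among 11 segments listed as pseudogenes (9.09%), against 55 of 153 others (35.9%) and 12.4% of all genes. These differences were not tested.

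Beta V segments fell in 8 of 23 cases (34.8%, against 12.4% of all genes), with a median of -0.42. Trbv20 (100124685) was at 4.39, 4.85, 6.20 and 4.34 on the Lin+ arrays and at 3.88, 3.24, 3.08 and 3.41 on the HSC-enriched arrays. It fell 2.92-fold (adjusted p = 0.0096), with Lin+ replicate 3 well above the other Lin+ arrays. Trbv14 fell by 1.03 (adjusted p = 0.0073), from 4.57 ± 0.56 to 3.54 ± 0.12. Both lost their calls with HSC-enriched replicates 3 and 4 left out (adjusted p = 0.076 and 0.051). Trbv31, which lies beyond Trbc2 at the end of the locus, fell by 0.90 (adjusted p = 0.025), but not without Lin+ replicate 2, HSC-enriched replicate 1 or HSC-enriched replicate 4 (adjusted p = 0.055 to 0.064). All 8 that fell had both means under the guide. Trbv12-2 (6.10 ± 0.18 against 6.24 ± 0.14) and Trbv2 (6.19 ± 0.32 against 6.03 ± 0.35) were the brightest beta V segments that did not pass.

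**Figure D3:**
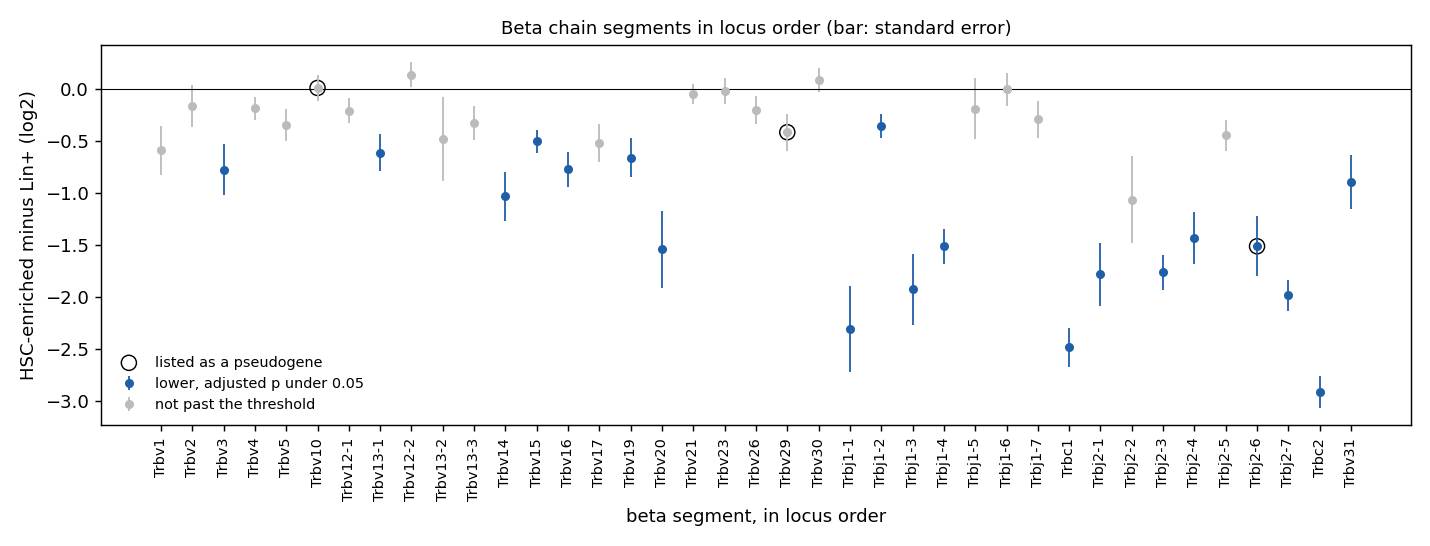
Difference between HSC-enriched and Lin+ means (log2, bars are standard errors) of the 39 beta segments in locus order, with blue points for falls, grey points for segments that did not pass and rings for listed pseudogenes. The J segments and constant genes reach lower than the V segments, down to -2.92 at Trbc2, and Trbj1-6 lies at 0.

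Alpha V segments fell in 8 of 45 cases (17.8%, against 12.4% of all genes), with a median of -0.23. Trav13-1 (100126469) was at 6.04, 5.62, 6.03 and 5.56 on the Lin+ arrays and at 4.74, 4.34, 4.99 and 4.52 on the HSC-enriched arrays. The groups did not overlap, and the fall was 2.24-fold (adjusted p = 0.00044). Trav14-1 fell by 1.14 (adjusted p = 0.0032) and Trav12-2 by 1.11 (adjusted p = 0.00047), both with means under the guide in each group. The brightest that did not pass were Trav13-2, at 7.63 ± 0.57 against 7.38 ± 0.53 (adjusted p = 0.65), and Trav12-1, at 6.67 ± 0.34 against 6.33 ± 0.41 (adjusted p = 0.32). Part of the alpha V region is repeated in the C57BL/6 genome, and the repeats carry d or n in their names. Of the 14 such copies 2 fell (14.3%, near the 12.4% of all genes), and of the 31 other alpha V segments 6 fell (19.4%). V segments of a family share sequence, so signal may be split among its members.

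The gamma locus is built of cassettes, each with its own V, J and C. In the Trgc2 cassette all 3 fell. Trgj2 (100126433) was at 3.54, 5.16, 5.39 and 6.23 on the Lin+ arrays and at 2.83, 2.61, 2.62 and 3.06 on the HSC-enriched arrays, a 4.93-fold fall (adjusted p = 0.0030) with a wide Lin+ spread. Trgv2 (21636) was at 6.80, 6.74, 6.89 and 7.01 against 6.18, 6.14, 6.42 and 5.28. It fell 1.81-fold (adjusted p = 0.013) with both means above the guide, and lost its call against a 1.2-fold null (adjusted p = 0.058).

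The other cassettes were mixed. In the Trgc4 cassette the constant gene fell as given above, while its V and J did not pass. Trgv1 was at 7.96 ± 0.31 in Lin+ and 7.81 ± 0.23 in HSC-enriched cells (adjusted p = 0.60). Trgj4 ran from 4.18 to 6.28 over the Lin+ arrays and from 4.42 to 6.28 over the HSC-enriched arrays, and did not separate the groups (adjusted p = 0.97). In the Trgc3 cassette Trgv3 was at 6.40 ± 0.15 against 6.59 ± 0.11 (adjusted p = 0.28), and Trgj3 differed by -0.31 (adjusted p = 0.23). In the Trgc1 cassette, whose 4 V segments did not pass, Trgj1 fell by 0.67 with both means under the guide (adjusted p = 0.040). That call was lost with the replicate number as a block (adjusted p = 0.071). It was also lost without Lin+ replicate 3 or 4 or any single HSC-enriched array (adjusted p = 0.063 to 0.108). Trgv6, chosen after its values were seen, ran from 3.61 to 4.35 over the Lin+ arrays. Its HSC-enriched values were 3.98, 3.92, 5.13 and 6.18, of which those of replicates 3 and 4 were the highest. It did not pass (adjusted p = 0.23). Among the HSC-enriched arrays, the neutrophil genes given above were also highest on replicates 3 and 4. On the Lin+ arrays those genes averaged 11.30 to 11.61, higher still, whereas Trgv6 was lower there than on HSC-enriched replicates 3 and 4. The part of neutrophils in Trgv6 was not tested.

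**Figure D4:**
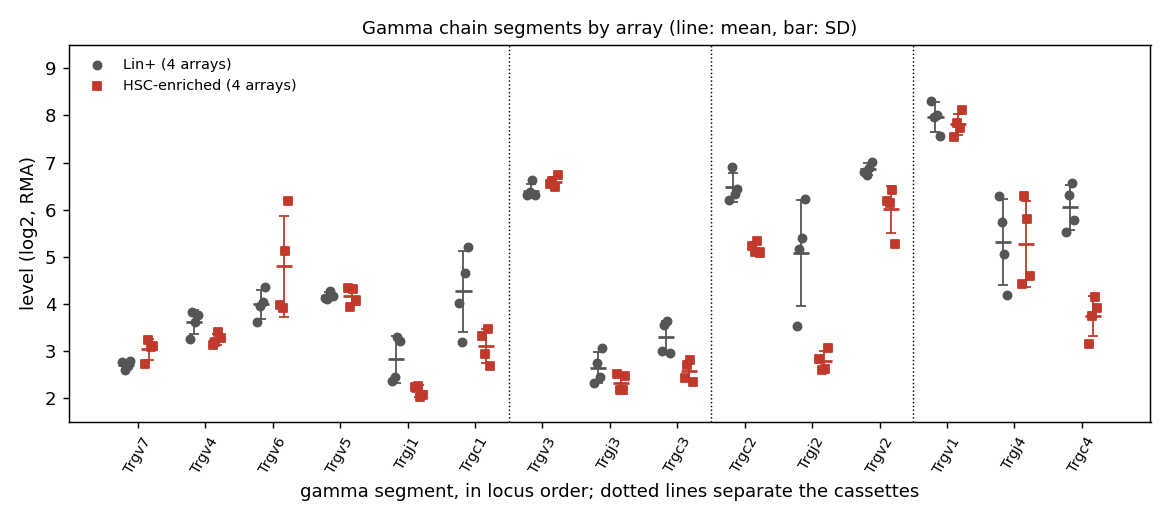
Log2 level of the 15 gamma segments on each of the 4 Lin+ arrays (grey circles) and 4 HSC-enriched arrays (red squares) in locus order, with mean (line) and SD (bar), and dotted lines between cassettes. The Trgc2 cassette separates the groups at all 3 genes, whereas in the last cassette Trgc4 does and Trgv1 and Trgj4 do not.

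Delta segments fell in 1 of 7 cases (14.3%), near the 12.4% of all genes that fell. The delta V and J segments lie within the alpha locus, ahead of the alpha J row. Of 5 delta V segments 0 fell or rose by limma's adjusted p, and 1 was lower at an unadjusted p under 0.05. Trdv2-2 was at 6.50 ± 0.22 in Lin+ and 6.60 ± 0.15 in HSC-enriched cells (adjusted p = 0.65), and Trdv2-1 at 5.58 ± 0.36 and 5.51 ± 0.40 (adjusted p = 0.87). Trdj1 (100115376) was at 4.00, 5.18, 4.66 and 5.20 on the Lin+ arrays and at 3.77, 3.58, 3.70 and 3.65 on the HSC-enriched arrays. It fell 2.12-fold (adjusted p = 0.0056) with both means under the guide, and Trdj2 differed by -0.33 (adjusted p = 0.20).

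Lin+ arrays varied more among themselves than HSC-enriched arrays in most J and V segments, while the C regions were divided. The SD over the 4 arrays was larger in Lin+ cells for 64 of 77 J segments (83.1%) and for 49 of 80 V segments (61.3%), against 51.0% of all genes. For J segments the median SD was 0.49 in Lin+ and 0.20 in HSC-enriched cells. For C regions it was 0.30 and 0.36. The SD was larger in Lin+ cells for 4 of 7 C regions (57.1%), those of the gamma chain. Trac, Trbc1 and Trbc2 each had the larger SD in HSC-enriched cells. Lin+ replicate 3 was the highest of the Lin+ arrays for 31 of 77 J segments and for 60 of all 164 segments (36.6%), against 25.6% of all genes. Traj40, chosen after its values were seen, was at 5.75 on Lin+ replicate 3 and at 2.61 to 2.81 on the other Lin+ arrays. The C regions were also highest on that array, at a mean of 7.31 against 6.98 to 7.17 on the other Lin+ arrays. The mean of the CD3 chains with Ptcra was highest there by a narrow margin (6.88 against 6.72 to 6.85). Of these 5 genes only 1, Cd3e, was itself highest on that array. The mean of the coreceptor and signalling genes was also narrowly highest there (6.74 against 6.56 to 6.72). Of these 29 genes, 11 were highest on Lin+ replicate 3 and 10 on Lin+ replicate 2. A set of 13 T cell markers did not have its highest mean on Lin+ replicate 3. It averaged 7.08, 7.02, 7.02 and 6.74 on Lin+ replicates 1 to 4.

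The CD3 chains, which carry the receptor's signal into the cell, split. Cd3g (12502) was at 7.03, 7.35, 7.31 and 7.39 on the Lin+ arrays and at 3.55, 3.58, 3.84 and 3.37 on the HSC-enriched arrays, a 12.9-fold fall (adjusted p = 8.2e-08). Cd3d (12500) fell 8.91-fold, from 7.55 ± 0.39 to 4.40 ± 0.23 (adjusted p = 1.6e-06), and Cd3e (12501) 6.75-fold, from 7.43 ± 0.41 to 4.67 ± 0.31 (adjusted p = 6.7e-06). In HSC-enriched cells all 3 had means under the guide. If CD3 was among the antibodies of the lineage panel, Cd3e was used to sort. Cd247, the zeta chain, which NK cells use too, was at 6.38 ± 0.28 in Lin+ and 6.46 ± 0.11 in HSC-enriched cells (adjusted p = 0.74). Ptcra, which encodes the partner of the beta chain before the alpha locus is joined, was at 5.44 ± 0.30 and 5.56 ± 0.10 (adjusted p = 0.67).

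Rag1, Rag2 and Dntt fell. Of 13 measured genes of recombination and end joining, 7 fell (53.8%, against 12.4% of all genes) and 3 rose (23.1%, against 15.5%). Dntt (21673), which encodes TdT, was at 8.99, 9.21, 8.86 and 9.26 on the Lin+ arrays and at 4.03, 3.93, 4.57 and 4.00 on the HSC-enriched arrays, a 30.9-fold fall (adjusted p = 5.9e-08). Rag1 (19373) was at 10.34, 9.53, 9.08 and 10.22 against 4.43, 5.37, 5.46 and 5.07, a 26.2-fold fall (adjusted p = 2.0e-06). Rag2 (19374) fell 7.85-fold (adjusted p = 1.3e-05). The HSC-enriched means of all 3 were under the guide, so these folds rest on values near background on that side. These genes are also those of B cell precursors, and the 13 B cell genes averaged 9.16 to 9.86 on the Lin+ arrays. The part of those cells in the Rag and Dntt values was not tested.

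The repair genes of the same list, active in most cells, went both ways, with Lig4, Polm, Xrcc6 and Hmgb2 among those that fell. Xrcc5, which encodes Ku80, rose 3.44-fold, from 6.68 ± 0.25 to 8.46 ± 0.10 (adjusted p = 4.8e-06). Hmgb1, a DNA-bending cofactor of the recombinase, rose by 0.60 (adjusted p = 0.017), though not with replicate 3 of either group left out (adjusted p = 0.0507 for Lin+, 0.0503 for HSC-enriched). Poll, a gap-filling polymerase gene, rose by 0.49 (adjusted p = 0.030), a call lost without Lin+ replicate 2, 3 or 4 or HSC-enriched replicate 1, 3 or 4 (adjusted p = 0.053 to 0.085) and with the replicate number as a block (adjusted p = 0.0615). Prkdc (6.37 ± 0.22 against 6.67 ± 0.06) and Nhej1 (6.70 ± 0.03 against 6.20 ± 0.43) did not pass with all arrays. Prkdc rose without Lin+ replicate 4 (adjusted p = 0.016), and Nhej1 fell without HSC-enriched replicate 2 (adjusted p = 0.020).

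Of 29 coreceptor and proximal signalling genes, 16 fell (55.2%, against 12.4% of all genes) and 5 rose (17.2%, near the 15.5% of all genes that rose). Cd2, an adhesion receptor gene, fell 27.6-fold, from 9.01 ± 0.08 to 4.22 ± 0.36 (adjusted p = 8.2e-08). Rasgrp1, a Ras activator gene downstream of the receptor, fell 8.77-fold (adjusted p = 6.2e-07), and Cd8b1, a coreceptor gene, 5.94-fold (adjusted p = 0.00025). All 3 had HSC-enriched means under the guide. Cd27, a receptor gene that stem and progenitor cells also use, rose 6.08-fold, to 9.54 ± 0.07 (adjusted p = 1.6e-06), Prkcq, a protein kinase C gene, 3.02-fold (adjusted p = 0.00010), and Lat, an adaptor gene that platelets and mast cells also use, 2.83-fold, from 7.17 ± 0.18 to 8.67 ± 0.09 (adjusted p = 6.1e-06). The adaptor gene Lcp2 (10.08 ± 0.15 against 10.13 ± 0.11) and the costimulatory receptor gene Cd28 (7.50 ± 0.41 against 7.76 ± 0.56) did not pass.

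Of 24 transcription factor genes of the T lineage, 13 fell (54.2%, against 12.4% of all genes) and 7 rose (29.2%, against 15.5%). Ikzf3, a lymphoid zinc finger factor gene, fell 13.4-fold (adjusted p = 7.9e-07) to an HSC-enriched mean under the guide. Lef1 and Ets1, whose products bind the alpha chain enhancer, fell 7.07-fold and 4.63-fold (adjusted p = 9.3e-06 and 1.9e-06). Hes1, a target of Notch signalling, rose 5.59-fold, from 6.60 ± 0.17 to 9.08 ± 0.86 (adjusted p = 0.00035). Tox rose 3.22-fold (adjusted p = 0.00012) and Rora 2.91-fold (adjusted p = 0.00032). Tcf12 (7.93 ± 0.32 against 8.27 ± 0.16) and Sox13 (6.47 ± 0.26 against 6.68 ± 0.13) did not pass.

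**Figure D5:**
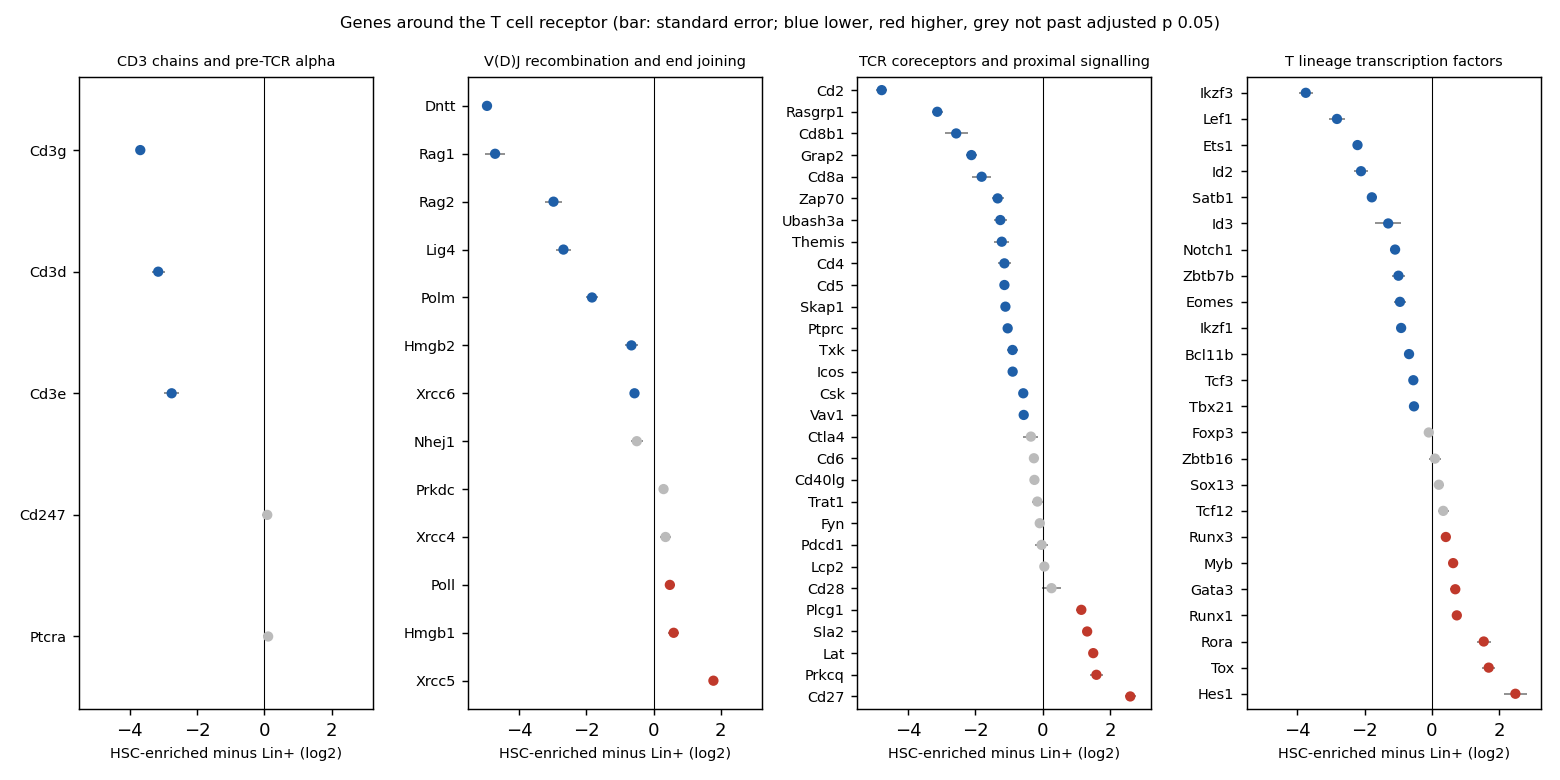
Difference between HSC-enriched and Lin+ means (log2, bars are standard errors) for the measured genes of 4 lists around the T cell receptor. Blue genes fell, red genes rose and grey genes did not pass. Dntt and Rag1 lie lowest among recombination genes, at -4.95 and -4.71, and Cd2 lowest among signalling genes, at -4.79, while Cd27 and Hes1 lie highest in their lists.

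Immunoglobulin segments, the B cell counterpart, gave higher counts of falls. Of 214 measured, 178 fell (83.2%, against 12.4% of all genes), with a median difference of -3.08. Immunoglobulin rises numbered 0, where 15.5% of all genes rose, and 0 also at an unadjusted p under 0.05 in limma's test. For V segments the counts were 166 of 199 against 17 of 80 for the T cell receptor. The families also differed in signal, with a Lin+ mean above the guide for 155 of 199 against 22 of 80 V segments. The difference between the families was not tested. Markers of other mature cells fell too, where 12.4% of all genes fell. These were 11 of 12 NK cell genes and 13 of 13 B cell genes. Neutrophil genes fell in 13 of 14 cases, and monocyte and macrophage genes in 10 of 10. Among the NK cell genes Klrd1 was at 8.31 ± 0.35 in Lin+ and 4.11 ± 0.15 in HSC-enriched cells, and Gzma at 8.54 ± 0.54 and 4.41 ± 0.44, both under the guide in HSC-enriched cells. Their part in the changes of the T cell receptor segments was not tested.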

How the data were processed

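RNA of sorted marrow cells (about 5 ng per sample) was amplified and hybridised to Affymetrix MouseGene arrays, for which versions 1.0st and 2.0st are both named, per the labels' protocols. The deposited values are on a log2 scale, as read from their range of 1.72 to 13.1, and per the submitters' processing notes the authors used RMA and Partek (no versions stated). The sources used here do not give the genome build, probe set definition or probes per gene.

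Of 24973 probe sets, 24015 had a symbol, updated by Entrez gene ID for 23922 with RefSeq's genes of GRCm38.p6, a table that served for names, pseudogene status and gene order alone. The brightest probe set of a symbol was kept, leaving 24011 genes. All 164 segments matched that table. Groups were compared with limma 3.58.1 (R 4.3.3, lmFit and eBayes), without covariates or a filter on low values, and Benjamini-Hochberg adjustment over all genes. On data simulated for these 24011 genes it recovered 66% of genes changed 2-fold and 98% of those changed 4-fold, and it called 9 unchanged genes. The 200 genes changed were drawn from all genes, so these rates are not those of the segments. The median SD of the segments was 0.35 in Lin+ and 0.20 in HSC-enriched cells, against 0.18 in each for all genes. No depth applies to arrays, and 4 arrays per group limit the precision. Of the 164 segments, 53 passed a filter at the 40th percentile and 41 one at the median of all values. Alternatives were array centring, repeated quantile normalization, those filters, the mean of probe sets, robust eBayes, array weights, a replicate block, a 1.2-fold null and arrays left out.

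Named genes were every C region and, per chain and class, up to 3 with the largest fall, up to 3 with the largest rise and up to 2 brightest not passing. They also included the CD3 chains, Ptcra, Rag1, Rag2 and Dntt, the same numbers in each other pathway list, and up to 2 per other cell type. With 3 more chosen after their values were seen, this gave 81. Members and lists were chosen with earlier results of these data known.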

Additional observations from a re-analysis of the deposited data

Results flagged for a closer look

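Among 81 named genes in 2 groups, 6 of 162 sets of 4 arrays (3.70%) held an array far from the other 3, where chance gives about 1 in 20. Traj40 was at 5.75 on Lin+ replicate 3 against 2.61 to 2.81 on the other Lin+ arrays. It was named after its values were seen, so its flag cannot be counted against that rate. Dntt was at 4.57 on HSC-enriched replicate 3 against 3.93 to 4.03, the array on which B cell genes were also highest. Prkcq was at 7.84 on HSC-enriched replicate 2 against 8.07 to 8.10, and Myct1, a gene of HSCs, at 10.67 on the same array against 10.20 to 10.27. Ets1 was at 9.08 on Lin+ replicate 1 against 8.85 to 8.87, and Mpo, a neutrophil gene, at 10.84 on that array against 11.28 to 11.36.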

How the results depend on the processing

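The filters, the mean of probe sets, robust eBayes, the replicate block and the 1.2-fold null left each segment's difference unchanged by construction. In the other fits the segments that fell kept a negative difference. Leaving arrays out could not reverse a segment whose groups did not overlap. No named gene with a call reversed in any fit. Of 56 segments that fell, 36 did against a 1.2-fold null. With a filter at the 40th percentile 21 fell and with one at the median 16, where only 53 and 41 of the 164 segments were tested. A gene passed a filter with at least 4 of the 8 arrays above the cut. The Lin+ arrays alone could thus admit a segment low in HSC-enriched cells, so the counts after the filters are no separate support for the falls. The filters left 3 V segments each and 13 and 8 J segments, and the 1.2-fold null left 7 V segments. Without HSC-enriched replicates 3 and 4 together 9 V segments fell. Rises numbered 2 with the filter at the median and 2 with array weights. With single arrays left out, 44 to 55 segments fell (12 to 17 V, 26 to 32 J, 6 to 7 C) and 1 to 3 rose, while 37 to 40 pathway genes fell and 12 to 14 rose, against 39 and 15. With the 99th percentile of olfactory receptor genes as a guide, 23 Lin+ and 11 HSC-enriched means were above it. Labels number replicates 1 to 4 in both groups. Deviations of equally numbered arrays correlated at -0.15, 0.06, 0.03 and -0.10, and 3 of 8 arrays correlated best with their own number. These values gave no sign that the numbers pair the samples, but 4 arrays per group cannot exclude a pairing. With the replicate number as a block 54 segments fell and 1 rose, and Trgj1 and Poll lost their calls. Of 56 named genes with a call 9 lost it in some setting, and of 25 without one 3 gained it.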
